A study of Homo sapiens with 15 samples.

Results

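The transcripts described here encode 8 transcription regulators of the erythroid lineage, KLF1, TAL1, LMO2, LDB1, GATA2, ZFPM1, GFI1B and GFI1. They were chosen by name from the 56624 gene symbols of the expression table, and all 8 exceeded the filter on low values. In red cell precursors TAL1, a basic helix-loop-helix factor, binds DNA with an E protein and is tethered through the adaptor LMO2 and the scaffold LDB1 to a GATA factor. GATA2 occupies this complex in progenitors and is replaced by GATA1 as cells mature, with ZFPM1 (also called FOG1) as the cofactor of GATA factors. KLF1 is the erythroid zinc-finger activator that binds CACCC elements of globin and haem genes, and GFI1 and GFI1B are related zinc-finger repressors that recruit LSD1 and CoREST.

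The RNA came from TF-1, an erythroleukaemia line of human origin that depends on cytokines such as GM-CSF, and from TF-1 lines in which single bases of IDH1 or IDH2 had been converted by base editing. The 15 libraries form 5 groups of 3, named by genotype as Parental, IDH1R132H, IDH2R140Q, IDH2R140W and IDH2R172K. GM-CSF was present at 2 ng/ml for Parental and absent for all 4 edited lines. Genotype and medium therefore cannot be told apart against Parental, and the edited lines among themselves had 1 medium. The labels do not say whether an edited line is 1 clone, nor whether the libraries of a group are separate cultures. Spread between them, on which every p-value rests, may thus be technical.

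Levels are in TPM, a transcript abundance corrected for length and brought to 1 total per library, in which read numbers are lost. The depth and the counting error of each library are therefore unknown. Differences are on the log2(TPM + 1) scale, where 1 unit is 2-fold, and are given with their standard error (SE) and limma's Benjamini-Hochberg adjusted p over 14881 tested genes. A gene passed at an adjusted p under 0.05. The smallest p of an exact test at 3 against 3 is 0.1, and the adjusted p-values are lower since limma borrows its spread from all groups and genes. These are bulk libraries, in which fewer cells of a type and less RNA per cell cannot be told apart.

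Between 12796 and 13792 genes reached 1 TPM per library. Parental replicate 2 and IDH2R140W replicate 3 stood apart from the other libraries of their groups. The median deviation of the 8 members from their group mean was −0.26 (log2) in Parental replicate 2 and −0.15 in IDH2R140W replicate 3. In Parental replicate 2, 7 of the 8 members were at the lowest of the 3 values, as were 6 in IDH2R140W replicate 3 and 7 in IDH1R132H replicate 2, whose median deviation was only −0.046. Ribosomal protein genes (85 symbols) held 19.3% of the TPM in the first of these libraries, against 15.4% and 16.4% in the other Parental ones, and 20.2% in the second, against 16.7% and 16.9%. Where leaving out Parental replicate 2 or IDH2R140W replicate 3 changed a pairwise call of a member, this is stated beside it or beside its count. GATA1, the central erythroid GATA factor, was listed at 0 in all 15 libraries on both of its rows, so nothing can be said of its level here.

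The promoters of 3 members are shown because their transcripts varied most clearly among the lines. RefSeq (GRCh38.p14) entries of 250 bases before and 50 bases after the annotated start were found for 7 of the 8 members, 12 in all; LMO2 had no entry. Capitals mark GATA words (GATA with A or T before it and A or G after it) and the word CCNCNCCC, a core of the CACCC elements KLF1 binds, both read on either strand. The sequences run 5′ to 3′ on the strand of the gene.
KLF1, chr19:12887152-12887451, minus strand: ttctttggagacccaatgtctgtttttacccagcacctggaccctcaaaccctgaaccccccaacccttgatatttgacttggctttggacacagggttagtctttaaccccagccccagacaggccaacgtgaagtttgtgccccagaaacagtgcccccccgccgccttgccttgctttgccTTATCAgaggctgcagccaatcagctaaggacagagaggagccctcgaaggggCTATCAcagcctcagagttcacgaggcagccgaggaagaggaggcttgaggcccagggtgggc
LDB1, chr10:102114953-102115252, minus strand: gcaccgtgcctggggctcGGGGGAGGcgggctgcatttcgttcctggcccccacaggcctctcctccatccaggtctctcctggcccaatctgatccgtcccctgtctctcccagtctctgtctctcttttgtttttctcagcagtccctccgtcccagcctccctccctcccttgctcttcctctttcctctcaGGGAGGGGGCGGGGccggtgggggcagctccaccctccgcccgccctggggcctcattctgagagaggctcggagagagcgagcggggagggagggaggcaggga
GFI1, second of 3 entries, chr1:92486050-92486349, minus strand: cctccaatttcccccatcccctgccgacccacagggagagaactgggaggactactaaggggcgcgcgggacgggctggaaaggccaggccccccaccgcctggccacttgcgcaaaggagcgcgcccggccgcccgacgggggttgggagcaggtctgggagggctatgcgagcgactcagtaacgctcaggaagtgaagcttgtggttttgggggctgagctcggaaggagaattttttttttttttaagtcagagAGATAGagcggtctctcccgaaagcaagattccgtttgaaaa
The KLF1 window held 2 GATA words, starting 66 and 13 bases before the start, and no CCNCNCCC. That of LDB1 held CCNCNCCC 4 times, with 3 overlapping matches close to each other, and no GATA word. The GFI1 window shown held 1 GATA word 9 bases into the transcript, the third GFI1 entry held 2 CCNCNCCC matches and the first neither. The window shown was thus the only GFI1 entry with a GATA word. By GENCODE 29 the LDB1 window and this GFI1 window lie inside their genes, downstream of the 5′ ends at 102120453 and 92486876. They stand at internal starts, while the first GFI1 entry lies at the 5′ end of that gene. Across the 12 entries of the members, 5 held a GATA word and 7 held CCNCNCCC. Of 35116 RefSeq promoters of the same length, 24.97% held a GATA word and 56.18% held CCNCNCCC. The E-box word CAGNTG, bound by TAL1 with E proteins, stood in 4 of the 12 entries against 49.94% of all promoters. These matches describe letters in a window and do not show binding.

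Of the 8 members, 6 differed among the 5 groups by limma's moderated F test (KLF1, GFI1, LDB1, GATA2, LMO2 and ZFPM1), where 67.1% of all tested genes did so. TAL1 (F test adjusted p = 0.0509) and GFI1B (adjusted p = 0.0619) did not pass. Against Parental, the members that passed numbered 3 (IDH1R132H), 4 (IDH2R140Q), 4 (IDH2R140W) and 3 (IDH2R172K). The corresponding shares of all tested genes were 43.8%, 44.4%, 24% and 39.1%. The libraries of a line did not overlap those of Parental for 3, 5, 4 and 4 members in that order. The same held for 52.4%, 53.9%, 31.4% and 47.9% of all tested genes, so lack of overlap is common here. Without Parental replicate 2 the members that passed in IDH2R140W numbered 7, where 24.6% of all genes passed. In IDH2R172K 1 member, GFI1, passed without replicate 2 or without replicate 3 of that line, where 33.1% and 32.9% of all genes passed. With a 2-fold difference also required, the members that passed numbered 0, 0, 0 and 1, against 10.8%, 10%, 4.78% and 9.31% of all genes. Listed in the same order, the median difference of the members was −0.06, −0.16, −0.25 and 0.03. The median over all tested genes was 0.16, 0.23, 0.03 and 0.13, with a shift above 0.1 in every line but IDH2R140W. Median-ratio scaling removes this shift, and under it the share of higher genes among all 2-fold calls went from 71.5% to 54.8% in IDH1R132H, from 75.4% to 55.5% in IDH2R140Q and from 68.3% to 54.7% in IDH2R172K.

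Between edited lines 1 to 5 members passed. They were 1 for IDH1R132H and IDH2R140Q (28.5% of all genes), 5 for IDH1R132H and IDH2R140W (35.6%), 3 for IDH1R132H and IDH2R172K (32.5%), 5 for IDH2R140Q and IDH2R140W (32.9%), 3 for IDH2R140Q and IDH2R172K (31%) and 5 for IDH2R140W and IDH2R172K (31.2%). The count for IDH2R140Q and IDH2R140W was 3, with LMO2 and LDB1 lost, without IDH2R140Q replicate 3 (24.8% of all genes) or IDH2R140W replicate 1 (32.5%). It was 4, with LDB1 lost, without IDH2R140Q replicate 1 (24.8%) or 2 (26.7%) or IDH2R140W replicate 2 (30.1%). Without Parental replicate 2 the count for IDH1R132H and IDH2R140Q was 2, with GFI1 added (33.2% of all genes). It was then 7 for IDH1R132H and IDH2R140W, with TAL1 and LDB1 added (40.6%). For IDH2R140W and IDH2R172K it was also 7, with TAL1 and LMO2 added (36.4%). Without IDH2R140W replicate 3, LDB1 passed in place of ZFPM1 between IDH1R132H and IDH2R140W. At 2-fold, GFI1 alone passed in 4 of these 6 pairs and no member in the others, against 5.5%, 7.86%, 7.49%, 5.69%, 7.57% and 6.86% of all genes in the order above. In the same order the 2 lines did not overlap for 5, 8, 5, 5, 4 and 7 members. Of all tested genes 52.4%, 49.3%, 51.9%, 48.9%, 51.2% and 44.1% did not overlap in these pairs.

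**Figure D1:**
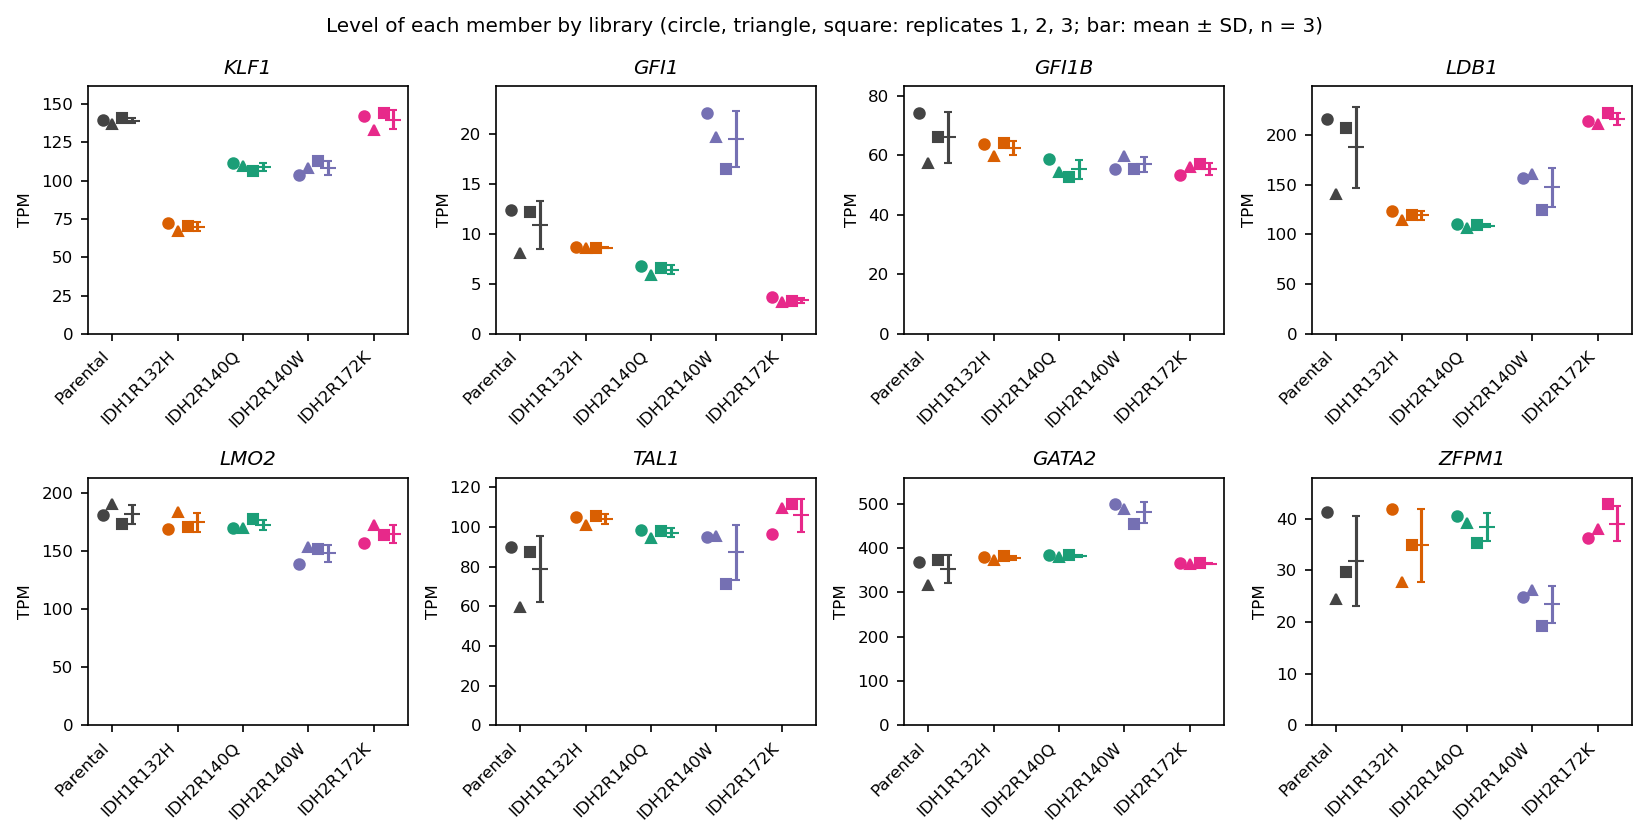
TPM of the 8 members (vertical axis, from 0) in every library of the 5 groups (horizontal axis), with circles, triangles and squares for replicates 1, 2 and 3 and a bar for the mean ± SD of 3 libraries. KLF1 is lowest in IDH1R132H, GFI1 is highest in IDH2R140W and lowest in IDH2R172K, and the triangle of Parental lies below the other Parental points in 7 of the 8 panels.

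KLF1, the activator of adult globin and haem genes, was lower in 3 of the 4 edited lines and at the Parental level in IDH2R172K. The Parental libraries held 139.49, 137.12 and 140.62 TPM, and those of IDH2R172K 142.07, 132.75 and 144.38. IDH1R132H held 72.63, 67.10 and 70.32 TPM, the lowest of all groups. The other lines lay between, at 111.18, 109.60 and 105.95 TPM in IDH2R140Q and at 103.39, 108.20 and 112.63 in IDH2R140W. The IDH1R132H libraries thus overlapped no other group, IDH2R140Q and IDH2R140W overlapped each other only, and IDH2R172K overlapped Parental.

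The fall of KLF1 in IDH1R132H was 0.98 on the log2 scale, as a signed difference −0.98 (SE 0.06, limma adjusted p = 1.39e-08), just short of 2-fold. It passed 2-fold after median-ratio scaling (−1.18), after quantile normalisation and without IDH1R132H replicate 1. In IDH2R140Q KLF1 fell by 0.35 (adjusted p = 0.00026) and in IDH2R140W by 0.36 (adjusted p = 0.000374). In IDH2R172K the difference was 0.01 with a 95% interval of −0.12 to 0.13 (adjusted p = 0.950). Among the edited lines, which shared a medium, KLF1 was lower in IDH1R132H than in IDH2R140Q (−0.63, adjusted p = 2.48e-06), IDH2R140W (−0.62, 1.58e-06) and IDH2R172K (−0.99, 1.97e-08). It was also lower than in IDH2R172K in IDH2R140Q (−0.36, adjusted p = 0.000294) and IDH2R140W (−0.37, 0.000247). IDH2R140Q and IDH2R140W, which change the same residue, differed by 0.01 with an interval of −0.11 to 0.14 (adjusted p = 0.900). KLF1 was the member whose libraries agreed most closely within Parental, with an SD of 1.79 TPM around 139.1, and leaving out Parental replicate 2 ended none of these calls.

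**Figure D2:**
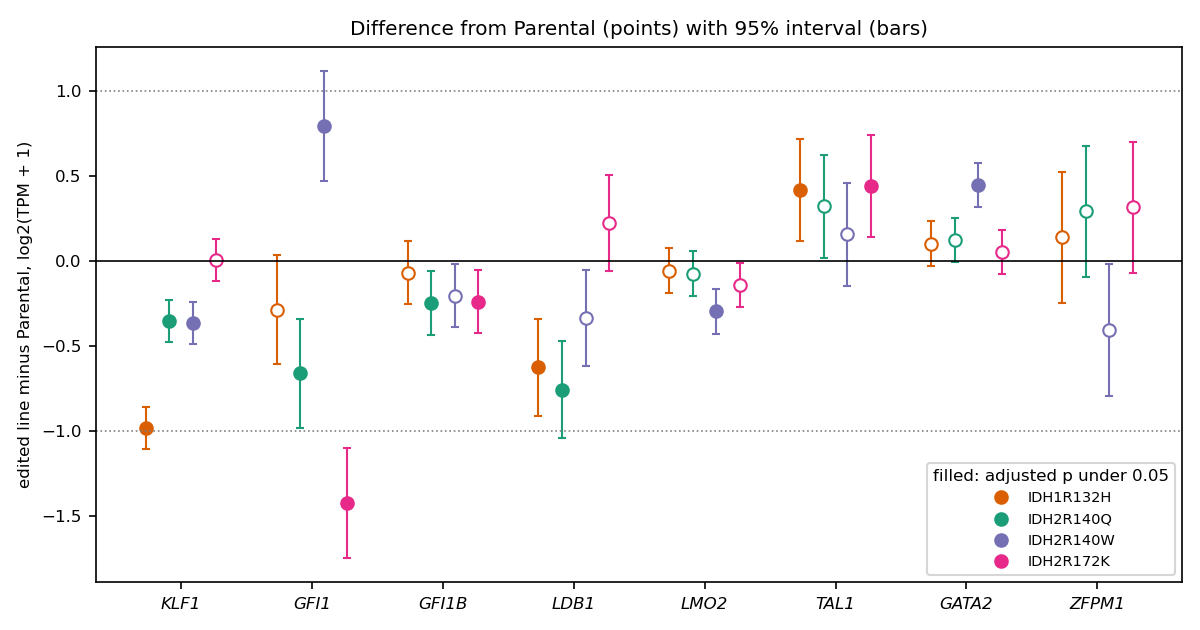
Edited line minus Parental on the log2(TPM + 1) scale (vertical axis) for each member (horizontal axis) in the 4 edited lines, with the 95% interval as a bar and filled points where limma's adjusted p was under 0.05; dotted lines mark 2-fold. KLF1 in IDH1R132H lies at −0.98 and GFI1 runs from −1.42 in IDH2R172K to 0.79 in IDH2R140W, while most other intervals include 0 or end close to it.

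KLF1 (hg38, GENCODE 29, chromosome 19, 12884422 to 12887199, minus strand) lies among genes that were higher in all 4 edited lines than in Parental. Of the 51 other tested genes within 1 Mb, 46 were above 0 in each of the 4 comparisons. Those that passed as higher numbered 39 in both IDH1R132H and IDH2R140Q and 35 in both IDH2R140W and IDH2R172K, and 2 passed as lower in each line. Their median difference was 0.72, 0.77, 0.66 and 0.69 in that order, against medians of 0.16, 0.23, 0.03 and 0.13 over all genes. The 4 comparisons share their Parental libraries, and without Parental replicate 2 the medians were 0.71, 0.76, 0.54 and 0.58. Between edited lines the median of the 51 genes lay between −0.11 and 0.18.

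Against its surroundings KLF1 ran the other way. No gene of the window was below KLF1 in IDH1R132H, 1 of 51 was below it in each of IDH2R140Q and IDH2R140W, and 5 were below it in IDH2R172K. The nearest tested gene on one side, DNASE2, which encodes a lysosomal nuclease, stood at 11.9 TPM in Parental and at 15.9, 7.24, 9.78 and 12.7 in the 4 lines in the order above. On the other side GCDH, a mitochondrial dehydrogenase of lysine breakdown, stood at 72.5 TPM in Parental and at 69.9, 99.3, 117.8 and 97.1. The window also holds LYL1, a relative of TAL1, which stood at 202.8 TPM in Parental and at 330.3, 212.2, 255.0 and 239.2 in the lines. Gene copy number was not measured, and its part in these values was not tested.

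**Figure D3:**
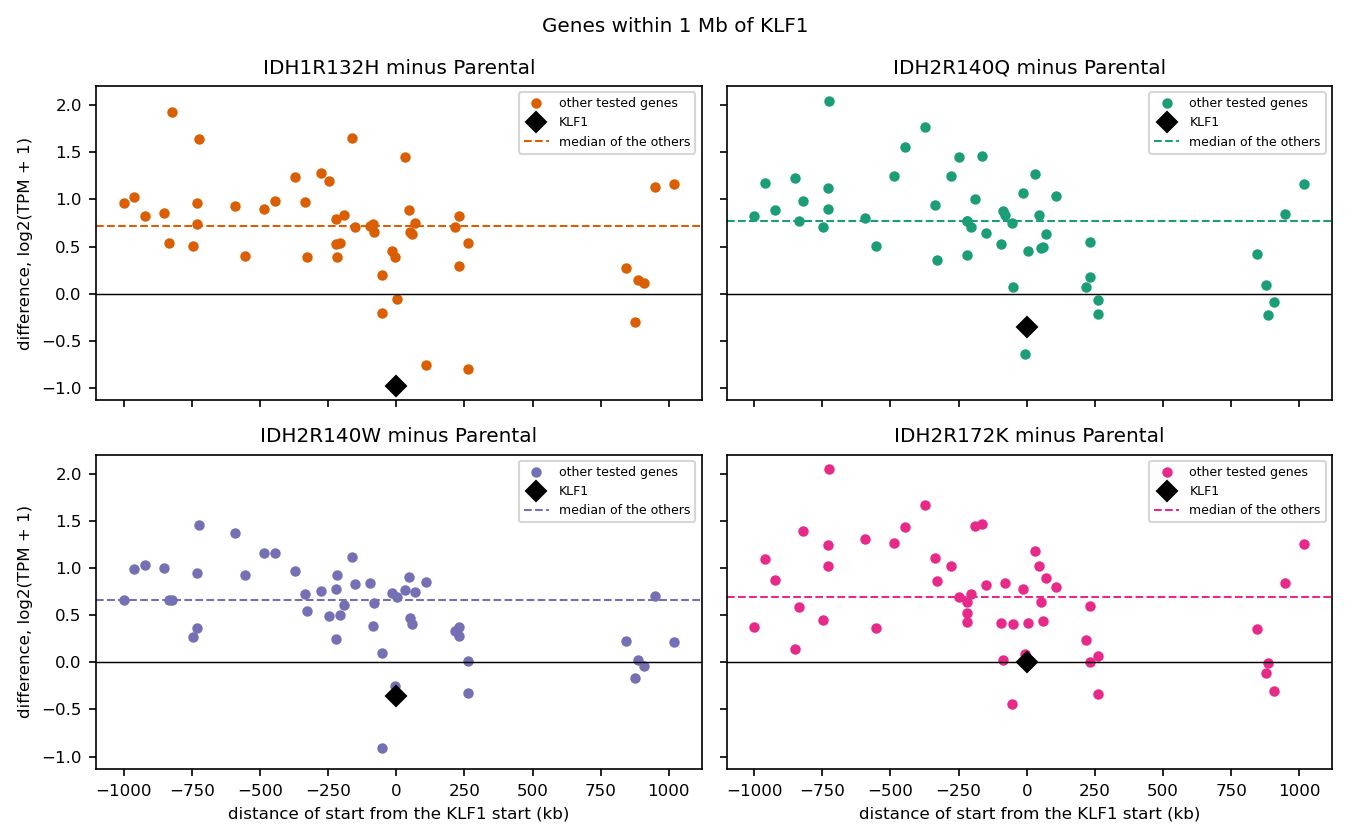
Edited line minus Parental on the log2(TPM + 1) scale (vertical axis) against the distance of each gene's start from that of KLF1 in kb (horizontal axis), 1 panel per edited line; circles are the 51 other tested genes within 1 Mb, the diamond is KLF1 and the dashed line is the median of the others. The medians lie at 0.72, 0.77, 0.66 and 0.69, and KLF1 lies below 0 in the first 3 panels and at 0.01 in the last.

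The 13 listed target genes of KLF1 did not move as 1 block. With a 2-fold difference required, 4 fell and 1 rose in IDH1R132H, 3 fell and 1 rose in IDH2R140Q, 3 fell and 1 rose in IDH2R140W, and 2 fell and 2 rose in IDH2R172K. The median of the list was −0.69, −0.13, −0.014 and 0.37 in that order, beside 0.16, 0.23, 0.03 and 0.13 for all genes. Of all tested genes 7.74%, 7.56%, 2.68% and 6.36% rose at least 2-fold, and 3.09%, 2.47%, 2.1% and 2.96% fell as far. Without Parental replicate 2, 6 fell in IDH1R132H and 1 in IDH2R172K, and without IDH2R140W replicate 3, 2 fell in IDH2R140W. The single gene that rose in the first 3 lines was CD44, an adhesion receptor.

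HBB, the adult beta globin, did not follow the order of KLF1. It was 69.0 ± 8.31 TPM in Parental (SD, n = 3) and in IDH1R132H fell to 1.31 ± 0.875 (−4.99, limma adjusted p = 7.96e-10) and to 4.76 ± 0.353 in IDH2R140Q (−3.60, 2.12e-08). In IDH2R140W, where KLF1 was 108.1 ± 4.62 TPM, HBB rose to 112.8 ± 18.7 (0.70, adjusted p = 0.0314). In IDH2R172K, where KLF1 was 139.7 ± 6.16 TPM, HBB fell to 41.6 ± 3.52 (−0.71, adjusted p = 0.0182). KLF1 in IDH2R140Q, at 108.9 ± 2.68 TPM, and in IDH2R140W were not told apart, while HBB stood at 4.76 in one and 112.8 in the other.

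ALAS2 and AHSP, of the same list, came closer to the order of KLF1. ALAS2, the erythroid enzyme that starts haem synthesis, was 19.6 ± 2.68 TPM in Parental and fell to 2.37 ± 0.965, 3.42 ± 0.797 and 6.82 ± 1.68 in IDH1R132H, IDH2R140Q and IDH2R140W (adjusted p = 4.07e-07, 2.67e-06 and 0.000306). It was 25.5 ± 1.93 in IDH2R172K, which did not pass (0.37, adjusted p = 0.202). AHSP, the chaperone of free alpha globin, went from 23.8 ± 1.26 in Parental to 5.20 ± 1.18, 4.91 ± 1.16 and 10.9 ± 3.44 in the same 3 lines, and to 32.4 ± 2.66 in IDH2R172K, where it did not pass (0.43, adjusted p = 0.121). BCL11A, a repressor of fetal globin genes whose own gene KLF1 activates, fell in IDH2R172K from 5.63 ± 1.70 to 2.01 ± 0.430 TPM (−1.12, adjusted p = 0.000581), the line whose KLF1 level overlapped Parental. This difference was −0.92, under 2-fold, without Parental replicate 2.

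**Figure D4:**
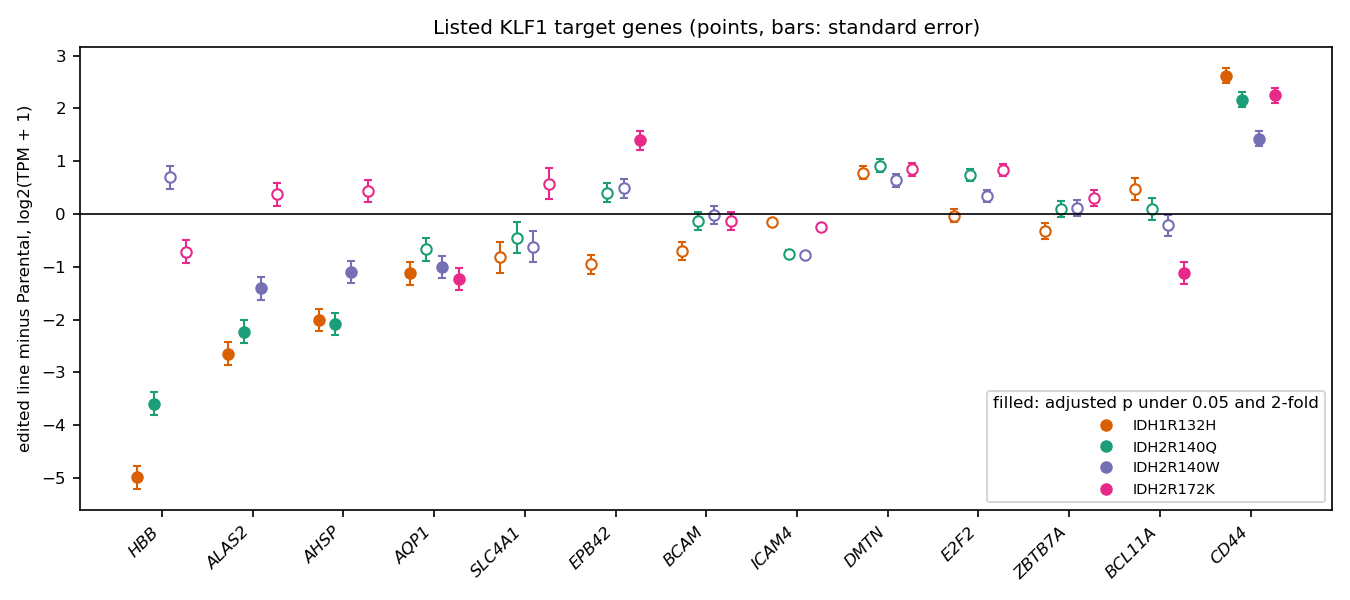
Edited line minus Parental on the log2(TPM + 1) scale (vertical axis) for the 13 listed KLF1 targets (horizontal axis) in the 4 edited lines, with the standard error as a bar and filled points for an adjusted p under 0.05 with at least a 2-fold difference. HBB runs from −4.99 in IDH1R132H to 0.70 in IDH2R140W, ALAS2 and AHSP are below 0 in 3 lines and above 0 in IDH2R172K, and CD44 is above 0 in all 4.

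LDB1, the scaffold whose self-association bridges enhancers and promoters, was lower in 2 edited lines. The Parental libraries held 215.67, 140.91 and 206.73 TPM, with replicate 2 far below the others. IDH1R132H held 124.04, 114.91 and 119.21 TPM, and IDH2R140Q held 110.12, 106.80 and 109.95, all below the lowest Parental value. IDH2R172K held 214.24, 210.65 and 222.64 TPM, and IDH2R140W held 156.53, 160.89 and 124.37, both overlapping Parental.

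LDB1 fell by 0.62 in IDH1R132H (SE 0.13, adjusted p = 0.00162) and by 0.75 in IDH2R140Q (adjusted p = 0.000419). The second difference reached 2-fold after median-ratio scaling (−1.02). In IDH2R140W the difference was −0.33 with an interval of −0.62 to −0.05 (adjusted p = 0.0845), and without Parental replicate 2 it passed at −0.53 (adjusted p = 0.000753). In IDH2R172K LDB1 differed from Parental by 0.22 with an interval of −0.06 to 0.51 (adjusted p = 0.194). Set against IDH2R172K in the shared medium, LDB1 was lower in IDH1R132H (−0.85, adjusted p = 0.000204), IDH2R140Q (−0.98, 5.94e-05) and IDH2R140W (−0.56, 0.00529). IDH1R132H and IDH2R140Q differed by 0.13 with an interval of −0.15 to 0.41 (adjusted p = 0.512). LDB1 was also lower in IDH2R140Q than in IDH2R140W (−0.42, adjusted p = 0.0249). That call was lost with no filter on low values (0.0629) and without any 1 of the IDH2R140Q libraries (0.0583 to 0.0670). It was also lost without IDH2R140W replicate 1 (0.0729) or 2 (0.0859).

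LDB1 (chromosome 10, 102107560 to 102120453, minus strand) lies on a chromosome whose 416 tested coding genes had a median of −0.17 in IDH2R140Q against Parental, where genes elsewhere had 0.26. In IDH2R140Q the 25 other tested genes within 1 Mb had a median of −0.27, and 4 of them were below LDB1. In IDH1R132H the median of the 25 was 0.22 and 2 were below LDB1. The fall of LDB1 was thus accompanied by lower surroundings in IDH2R140Q and by higher ones in IDH1R132H. The part of gene dosage was not tested.

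LMO2, the LIM-domain adaptor between TAL1 and LDB1, had its lowest mean in IDH2R140W. It stood at 180.59, 190.33 and 173.53 TPM in Parental, at 169.25, 183.92 and 170.65 in IDH1R132H and at 169.70, 170.02 and 177.29 in IDH2R140Q. IDH2R172K held 157.21, 172.54 and 164.02 TPM, and IDH2R140W held 139.14, 153.21 and 151.31. Those of IDH2R140W were below every library of the other groups. LMO2 fell in IDH2R140W by 0.29 (SE 0.06, adjusted p = 0.00295), which did not pass when only the 6 compared libraries were fitted (adjusted p = 0.0599). The other lines differed from Parental by −0.06 (interval −0.19 to 0.08), −0.07 (−0.21 to 0.06) and −0.14 (−0.27 to −0.01) for IDH1R132H, IDH2R140Q and IDH2R172K. None of these passed on the deposited scale, and all did after median-ratio scaling, at −0.25 (adjusted p = 0.0424), −0.34 (0.0109) and −0.30 (0.0221). Between lines on the deposited scale, IDH1R132H (0.24, adjusted p = 0.00775) and IDH2R140Q (0.22, 0.0140) exceeded IDH2R140W, and IDH2R172K was not told apart from it (adjusted p = 0.0728). The difference between IDH2R140Q and IDH2R140W did not pass without IDH2R140Q replicate 3 (adjusted p = 0.0559) or IDH2R140W replicate 1 (0.0562). The difference between IDH2R140W and IDH2R172K passed without Parental replicate 2 and with library weights. After median-ratio scaling the differences of IDH1R132H and IDH2R140Q from IDH2R140W kept their sign but did not pass, at 0.092 (adjusted p = 0.490) and 0.0083 (0.963). They did not pass after quantile normalisation either, at 0.13 (adjusted p = 0.125) and 0.13 (0.138). IDH2R140W was thus still below these lines, but was told apart from them with all libraries on the deposited scale and not after either scaling.

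The ratio of LDB1 to LMO2 followed LDB1. The TPM of LDB1 over that of LMO2 was 1.31 ± 0.0804 in IDH2R172K, 1.04 ± 0.261 in Parental, 0.999 ± 0.158 in IDH2R140W, 0.685 ± 0.0552 in IDH1R132H and 0.632 ± 0.0148 in IDH2R140Q (SD, n = 3). The range of the last line ended at 0.649 and that of IDH2R172K began at 1.22.

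TAL1, the DNA-binding basic helix-loop-helix member, held 89.70, 59.46 and 87.25 TPM in Parental. Edited libraries held 105.20, 101.19 and 105.59 in IDH1R132H, 98.58, 94.62 and 98.20 in IDH2R140Q, and 96.23, 109.61 and 111.55 in IDH2R172K. IDH2R140W held 95.17, 95.50 and 71.37 TPM and overlapped Parental, which the other lines did not. TAL1 rose in IDH1R132H (0.42, SE 0.14, adjusted p = 0.0261) and IDH2R172K (0.44, adjusted p = 0.0230). Both calls were lost without Parental replicate 2, at 0.23 (adjusted p = 0.109) and 0.25 (0.0873). Both were also lost with no filter on low values (0.0647 and 0.0584) and with only the compared libraries (0.0764 and 0.0908). The call in IDH1R132H was lost after median-ratio scaling (0.0678), after quantile normalisation (0.0820) and without any 1 of the IDH1R132H libraries (0.0504 to 0.0669). The call in IDH2R172K was lost without IDH2R172K replicate 2 (0.0678) or 3 (0.0749). The differences in IDH2R140Q (0.32, interval 0.02 to 0.62, adjusted p = 0.0775) and IDH2R140W (0.16, interval −0.14 to 0.46, adjusted p = 0.475) did not pass with all libraries. That in IDH2R140Q passed without Parental replicate 1 (0.43, adjusted p = 0.0331), with library weights (0.16, 0.0409) and without IDH2R140W replicate 3. Between edited lines no TAL1 difference passed with all libraries, and the widest was −0.28 between IDH2R140W and IDH2R172K (interval −0.58 to 0.02, adjusted p = 0.144). Without Parental replicate 2, TAL1 passed as lower in IDH2R140W than in IDH1R132H and than in IDH2R172K.

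Partners of the TAL1 complex, such as E proteins, LYL1, LMO4 and SSBP proteins that stabilise LDB1, numbered 10 tested of 11 listed. With 2-fold required none fell in any line, 2 rose in IDH2R140Q and none rose in the other 3. Of all tested genes 7.56% rose as far in IDH2R140Q, and 7.74%, 2.68% and 6.36% in IDH1R132H, IDH2R140W and IDH2R172K. The shares that fell as far were 3.09% (IDH1R132H), 2.47% (IDH2R140Q), 2.1% (IDH2R140W) and 2.96% (IDH2R172K). LMO4, a LIM-only relative of LMO2 that also binds LDB1, was 40.5 ± 1.06 TPM in Parental and 91.8 ± 1.70 in IDH2R140Q (1.16, adjusted p = 6.10e-09). CBFA2T2, an ETO-family corepressor, went from 7.29 ± 2.48 TPM to libraries of 19.03, 15.50 and 16.57 in the same line (1.16, adjusted p = 0.00036), a difference of 0.95 without Parental replicate 2, under 2-fold. The list's median was 0.53, 0.31, 0.07 and 0.34 in IDH1R132H, IDH2R140Q, IDH2R140W and IDH2R172K, beside 0.16, 0.23, 0.03 and 0.13 for all genes.

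ID proteins, which bind E proteins and keep them off DNA, differed between the lines. ID1 was 477.4 ± 72.0 TPM in Parental and fell to 111.8 ± 3.61 in IDH1R132H (−2.07, adjusted p = 6.06e-10), to 102.2 ± 4.24 in IDH2R140Q (−2.20, 4.13e-10) and to 218.0 ± 15.5 in IDH2R140W (−1.12, 5.80e-07). In IDH2R172K its libraries held 251.29, 253.64 and 256.60 TPM, a fall of less than 2-fold (−0.90, adjusted p = 2.31e-06). The fall in IDH2R140W was just under 2-fold as well without Parental replicate 2 (−0.999). ID3 fell 2-fold in IDH2R140Q (−1.58, adjusted p = 2.10e-06) and less in IDH2R140W (−0.78, 0.00184), and it rose in IDH2R172K (0.66, 0.00354). ID2 rose in IDH2R172K from 37.8 ± 0.491 to 116.4 ± 9.84 TPM (1.59, adjusted p = 1.56e-08). Of the 3 tested members of the list, 1 fell at least 2-fold in IDH1R132H, 2 in IDH2R140Q and 1 in IDH2R140W, and 1 rose in IDH2R172K. Of all tested genes 3.09%, 2.47% and 2.1% fell as far in the first 3 lines, and 6.36% rose as far in IDH2R172K.

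GATA2, the progenitor GATA factor, was the most abundant of the 8 members by TPM in every group and was higher in IDH2R140W than elsewhere. IDH2R140W held 499.67, 489.19 and 454.77 TPM. The other groups held 368.37, 316.63 and 374.00 in Parental, 379.81, 372.44 and 382.40 in IDH1R132H, 385.14, 380.73 and 384.30 in IDH2R140Q, and 365.66, 363.87 and 365.67 in IDH2R172K. Every IDH2R140W library lay above all 12 of these. GATA2 rose in IDH2R140W against Parental (0.45, SE 0.06, adjusted p = 9.32e-05). It was also higher there than in IDH2R172K (0.40, adjusted p = 0.000199), and IDH1R132H (−0.35, 0.00052) and IDH2R140Q (−0.33, 0.00105) were below it. The other lines differed from Parental by 0.10 (interval −0.03 to 0.23), 0.12 (−0.01 to 0.25) and 0.05 (−0.08 to 0.18). These 3 values were below 0 after median-ratio scaling, at −0.094, −0.14 (adjusted p = 0.0356) and −0.10.

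The TPM of GATA2 over that of KLF1 was 2.54 ± 0.197 in Parental and 2.62 ± 0.110 in IDH2R172K. It was 3.52 ± 0.0915 in IDH2R140Q, 4.46 ± 0.401 in IDH2R140W and 5.41 ± 0.163 in IDH1R132H (SD, n = 3). The lowest library of IDH2R140Q, at 3.46, lay above the highest of IDH2R172K, at 2.74. Against Parental only KLF1 of the pair passed in IDH1R132H, and both genes did in IDH2R140W.

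ZFPM1, the GATA cofactor, had its lowest mean in IDH2R140W and was uneven within Parental and IDH1R132H. Parental held 41.30, 24.42 and 29.69 TPM, and IDH1R132H held 41.79, 27.81 and 34.89. IDH2R140Q held 40.57, 39.07 and 35.38 TPM, IDH2R172K 36.27, 38.01 and 42.83, and IDH2R140W 24.84, 26.13 and 19.28. All 4 lines overlapped Parental and none passed with all libraries on the deposited scale, with intervals of −0.24 to 0.53, −0.09 to 0.68, −0.79 to −0.02 and −0.07 to 0.70 in IDH1R132H, IDH2R140Q, IDH2R140W and IDH2R172K. In IDH2R140W ZFPM1 passed as lower without Parental replicate 2 (−0.57, adjusted p = 0.0300), after median-ratio scaling (−0.45, 0.0371) and after quantile normalisation (−0.44, 0.0390). Without Parental replicate 1 it passed as higher in IDH2R140Q (0.49, adjusted p = 0.0287) and IDH2R172K (0.52, 0.0258). Among edited lines ZFPM1 in IDH2R140Q exceeded that in IDH2R140W (0.70, adjusted p = 0.00895), and IDH2R140W was below IDH2R172K (−0.72, 0.00725). The difference between IDH1R132H and IDH2R140W (0.55, adjusted p = 0.0293) did not pass without IDH2R140W replicate 3 (0.42, adjusted p = 0.117), without IDH1R132H replicate 1 (0.41, 0.128) or without IDH1R132H replicate 3 (0.54, 0.0736). GATA2 and ZFPM1 thus stood at opposite ends in IDH2R140W, the one above all other groups and the other below the other edited lines.

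Of the 15 tested genes on a list of GATA1 and TAL1 complex targets, the number that fell at least 2-fold was 4 (IDH1R132H), 7 (IDH2R140Q), 5 (IDH2R140W) and 3 (IDH2R172K), and 1 rose in IDH2R172K. Of all tested genes 3.09%, 2.47%, 2.1% and 2.96% fell as far in that order, and 6.36% rose as far in IDH2R172K. The list's median was −0.45, −0.73, −0.32 and −0.12, beside 0.16, 0.23, 0.03 and 0.13 for all genes. Globins led the falls. HBG2, a fetal gamma globin, was 880.4 ± 225 TPM in Parental, 24.0 ± 5.75 in IDH1R132H (−5.14, adjusted p = 2.76e-10), 6.07 ± 1.23 in IDH2R140Q (−6.95, 1.14e-11) and 132.6 ± 22.8 in IDH2R140W (−2.71, 3.02e-07). In IDH2R172K its libraries held 606.77, 692.00 and 728.45 TPM and overlapped Parental. HBA1, an alpha globin, fell in all 4 lines, from 941.0 TPM in Parental to 119.3, 190.7, 327.7 and 386.8 in IDH1R132H, IDH2R140Q, IDH2R140W and IDH2R172K. HBG1 with HBG2, and HBA1 with HBA2, are nearly identical pairs between which counting may split reads. Without Parental replicate 2, 1 also rose in IDH1R132H. It was GYPB, a glycophorin, which with all libraries rose in IDH2R172K from 14.2 ± 3.74 to 44.1 ± 3.11 TPM (1.60, adjusted p = 2.88e-05).

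GFI1, the repressor best known from myeloid and lymphoid cells, had the widest spread of the 8 members. It held 12.39, 8.11 and 12.23 TPM in Parental and 8.69, 8.57 and 8.63 in IDH1R132H. IDH2R140Q held 6.82, 5.93 and 6.55 TPM, IDH2R140W 22.14, 19.71 and 16.54, and IDH2R172K 3.66, 3.20 and 3.28. The libraries of IDH2R140W lay above all others and those of IDH2R172K below all others. Mean levels differed 5.76-fold between these lines, and the span over the 5 groups, 2.22 on the log2 scale, exceeded that of 96.4% of tested genes.

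GFI1 fell at least 2-fold in IDH2R172K (−1.42, SE 0.15, adjusted p = 5.35e-06). It fell in IDH2R140Q by 0.66 (adjusted p = 0.00288) and rose in IDH2R140W by 0.79 (adjusted p = 0.00144, or 0.0535 when only the compared libraries were fitted). In IDH1R132H it differed from Parental by −0.28 (interval −0.61 to 0.04, adjusted p = 0.142), and it passed there without Parental replicate 2 (−0.47, adjusted p = 0.0104). In the shared medium GFI1 in IDH2R140W exceeded that in IDH2R172K (2.22, adjusted p = 8.28e-08), and it was lower than in IDH2R140W in IDH2R140Q (−1.45, 6.54e-06) and IDH1R132H (−1.08, 7.20e-05). Without IDH2R140W replicate 1 the last of these was −0.98, under 2-fold. IDH1R132H exceeded IDH2R172K (1.14, adjusted p = 4.87e-05), as did IDH2R140Q (0.76, 0.00136). Only the neighbouring means of Parental and IDH1R132H, and of IDH1R132H and IDH2R140Q (0.38, adjusted p = 0.0778), were not told apart in the main fit. Both differences passed after median-ratio scaling, after quantile normalisation, with library weights and without Parental replicate 2. The difference between IDH1R132H and IDH2R140Q also passed with only the compared libraries.

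Of 12 other tested genes within 1 Mb of GFI1 (chromosome 1, 92474762 to 92486876, minus strand), all 12 were below it in IDH2R140W and none was below it in IDH2R172K, both against Parental. Among 4246 genes whose group means span at least 1 log2 unit, those most correlated with GFI1 over the 15 libraries were TPT1 (Pearson r = 0.92), CD53 (0.91) and KIAA1324L (0.90). TPT1, a translationally controlled protein of very high abundance, was 3811 TPM in Parental, 4883 in IDH2R140W and 2192 in IDH2R172K. The libraries share 5 groups, so this describes an order of group means.

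GFI1B, the paralogue that dominates in erythroid and megakaryocytic cells, had group means between 55.3 and 66.1 TPM. Parental held 74.44, 57.58 and 66.14 TPM, IDH1R132H 63.77, 59.87 and 64.19, and IDH2R140Q 58.82, 54.46 and 52.67. IDH2R140W held 55.59, 59.73 and 55.58 TPM, and IDH2R172K 53.30, 56.13 and 57.16. Parental overlapped every line but IDH2R172K. The falls in IDH2R140Q (−0.25, SE 0.09, adjusted p = 0.0328) and IDH2R172K (−0.24, adjusted p = 0.0410) were lost under several alternatives, among them no filter on low values (0.0540 and 0.0697). Without Parental replicate 1 both were lost (adjusted p = 0.139 and 0.165), as they were without Parental replicate 3 (0.0722 and 0.0871). The second was lost without any 1 of the IDH2R172K libraries (0.0635 to 0.122), and the first without IDH2R140Q replicate 2 (0.0837) or 3 (0.110). The differences in IDH1R132H (−0.07, interval −0.25 to 0.12) and IDH2R140W (−0.20, interval −0.39 to −0.02) did not pass. IDH1R132H passed after median-ratio scaling (−0.26, adjusted p = 0.00911) and quantile normalisation (−0.23, 0.0167). IDH2R140W passed after both (−0.25, adjusted p = 0.0189, and −0.21, 0.0421), with library weights (−0.19, 0.0145) and without Parental replicate 2 (−0.30, 0.0116). GFI1B overlaps TSC1 on the opposite strand, which stood at 2.48 to 4.11 TPM. The library kit was directional and the strand setting used in counting is not given in the sources used here.

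GFI1B exceeded GFI1 in every library, by a factor that moved with GFI1. The TPM ratio was lowest in IDH2R140W at 2.97 ± 0.428, followed by Parental at 6.17 ± 0.858, IDH1R132H at 7.25 ± 0.237 and IDH2R140Q at 8.62 ± 0.571, and highest in IDH2R172K at 16.5 ± 1.69 (SD, n = 3). All libraries of IDH2R140W, between 2.51 and 3.36, lay below the lowest Parental ratio of 5.41. Those of IDH2R172K, between 14.6 and 17.5, lay above the highest ratio of any other line, 9.18 in IDH2R140Q.

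**Figure D5:**
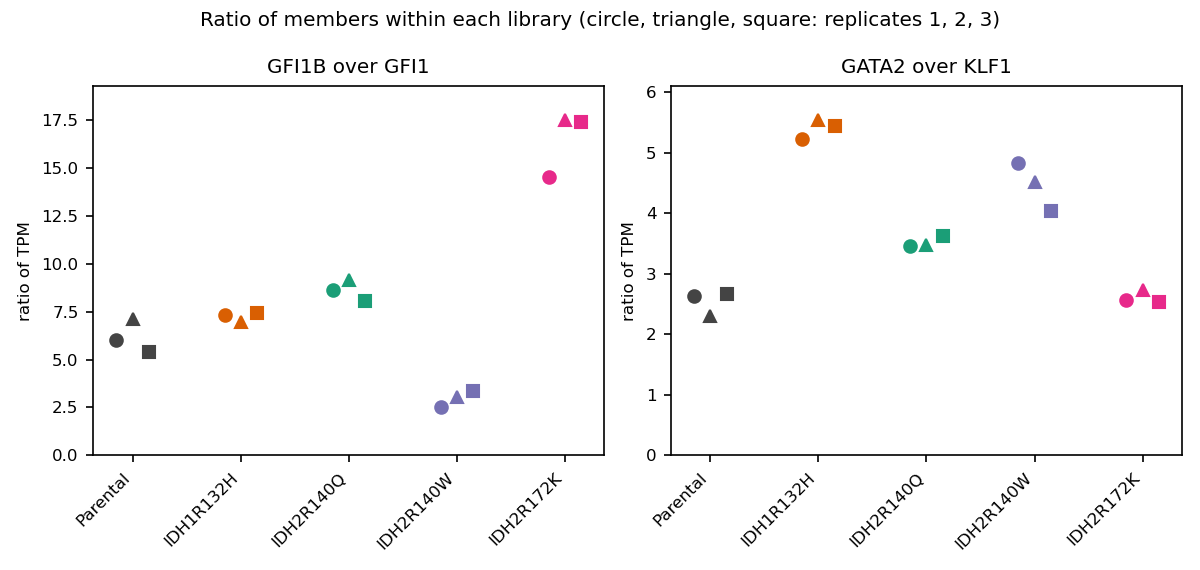
Ratio of the TPM of GFI1B to that of GFI1 (left) and of GATA2 to that of KLF1 (right) in every library (vertical axes, from 0) by group (horizontal axes), with circles, triangles and squares for replicates 1, 2 and 3. On the left IDH2R140W lies between 2.51 and 3.36 and IDH2R172K between 14.6 and 17.5, and on the right IDH1R132H has the highest mean, 5.41.

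Of 11 tested genes on a list repressed by GFI1 or GFI1B, with 2-fold required, 2 rose and 1 fell in IDH1R132H, 2 rose and 0 fell in IDH2R140Q and in IDH2R140W, and 2 rose and 1 fell in IDH2R172K. Of all tested genes 7.74%, 7.56%, 2.68% and 6.36% rose and 3.09%, 2.47%, 2.1% and 2.96% fell that far, shares that on 11 genes leave most of these counts close to the background. The list's median was −0.21, −0.017, 0.24 and −0.22. RGS18, a regulator of G protein signalling in platelets, rose from 17.8 ± 0.790 TPM to 62.1 ± 2.73 in IDH1R132H, 71.6 ± 7.30 in IDH2R140Q and 58.2 ± 0.595 in IDH2R140W. CSF1, the macrophage growth factor, held 24.03, 16.59 and 19.38 TPM in Parental, and its mean was 51.1 ± 8.81 in IDH2R140W (1.31, adjusted p = 4.66e-05), 5.88 ± 0.751 in IDH1R132H (−1.60, 3.11e-06) and 8.18 ± 1.60 in IDH2R172K (−1.19, 5.47e-05). CSF1 was thus highest in the line with the highest GFI1 level, and lower than Parental in the line with the lowest. ID2 and MEIS1 of the same list went the other way from CSF1 in IDH2R172K, where GFI1 was lowest. ID2 rose there from 37.8 ± 0.491 to 116.4 ± 9.84 TPM, and MEIS1 from 1.98 ± 1.02 to 8.55 ± 0.364. In IDH2R140W ID2 stood at 57.7 ± 2.79 TPM and MEIS1 at 3.19 ± 0.580. The relation of these genes to GFI1 was not tested.

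Corepressors that GFI1 factors and ZFPM1 recruit, the LSD1-CoREST and NuRD subunits, numbered 20 tested. With 2-fold required, 1 rose in IDH1R132H (GATAD2A, 1.08, adjusted p = 0.00850), 1 fell in IDH2R172K (MTA3, −1.06, 1.63e-05), and 0 changed in IDH2R140Q and IDH2R140W. The shares of all genes were 10.8%, 10%, 4.78% and 9.31%, which on 20 genes is near these counts. GATAD2A held 320.85, 129.61 and 267.96 TPM in Parental, and without replicate 2 its difference was 0.69, under 2-fold. Without IDH2R140W replicate 3 RCOR1 also passed as higher in IDH2R140W. Of 18 other erythroid transcription factors KLF10 rose in IDH1R132H (1.34, adjusted p = 3.22e-06) and BCL11A fell in IDH2R172K, with 0 changing in the other 2 lines. The call of BCL11A was lost without Parental replicate 2, and NFIA then passed as lower in IDH1R132H.

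Factors of other blood lineages included some that rose. Of 13 tested, 3 rose in each of IDH1R132H, IDH2R140Q and IDH2R140W, 4 rose in IDH2R172K and 0 fell in any line. The shares of all genes that rose were 7.74%, 7.56%, 2.68% and 6.36%. RUNX1, a core haematopoietic factor, was 39.3 ± 13.1 TPM in Parental, 116.4 ± 5.49 in IDH1R132H (1.60, adjusted p = 0.000208), 123.2 ± 10.3 in IDH2R140Q (1.68, 0.000154), 88.7 ± 33.1 in IDH2R140W (1.13, 0.00559) and 132.1 ± 6.90 in IDH2R172K (1.78, 9.47e-05). Its IDH2R140W libraries held 104.80, 110.71 and 50.60 TPM, the last of these overlapping Parental, whose highest library held 51.28. Without Parental replicate 2 the difference in IDH2R140W was 0.85, under 2-fold, and the members of the list that rose numbered 2, 2, 1 and 3 in the order above. MEIS1, a stem cell homeobox factor, went from 1.98 ± 1.02 TPM to 26.6 ± 3.76 in IDH1R132H, 17.5 ± 1.71 in IDH2R140Q and 8.55 ± 0.364 in IDH2R172K. ERG and FLI1, ETS factors of progenitors and megakaryocytes, both rose in IDH2R172K. ERG held 31.03, 17.02 and 30.71 TPM in Parental and rose to 71.9 ± 21.2 in IDH2R140W (1.42, adjusted p = 0.000356), 67.0 ± 5.40 in IDH2R172K (1.36, 0.000279) and 56.0 ± 4.97 in IDH2R140Q (1.11, 0.00131), the last of these under 2-fold without Parental replicate 2 (0.83). FLI1 rose in IDH2R172K from 71.7 ± 9.01 to 149.7 ± 5.76, and without Parental replicate 2 that difference was 0.95, under 2-fold.

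Markers of mature cell types moved with the lines as well. The summed level of 12 erythroid markers was 2503 to 3417 TPM in Parental, 307.3 to 343.0 in IDH1R132H, 406.5 to 414.1 in IDH2R140Q, 829.1 to 1010 in IDH2R140W and 1666 to 1784 in IDH2R172K. The sum of 9 megakaryocyte markers was 344.4 to 391.7 in Parental and 485.3 to 668.5 in the edited lines. PF4 was at 0 in all Parental, IDH2R140W and IDH2R172K libraries. The sum of 7 mast cell and basophil markers was 75.8 to 91.3 in Parental and 319.8 to 692.3 in the edited lines. Among 7 monocyte markers FCGR1A and FCN1 were at 0 in all libraries. Neutrophil granule markers (5 genes) summed to 2.90 to 4.22 TPM in Parental and 9.08 to 62.1 in the edited lines. That rise was in CTSG, which held 0 to 0.97 TPM in the Parental libraries and 8.96 to 60.2 in the edited ones. MPO, the only other tested gene of this list, went the other way. Its mean was 1.81 TPM in Parental, and it fell at least 2-fold in IDH2R140Q (0.207) and IDH2R140W (0.0233). T and B cell markers (6 genes) summed to 2.26 to 89.6 over all libraries. The part of these lineage markers in the levels of the 8 members was not tested.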

How the data were processed

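The authors deposited 1 table of TPM values, with gene symbols as rows and 1 column per library. Per the submitters' processing notes the tools were STAR 2.7.3, HTSeq, RSEM and DESeq2 with build hg38, with no role given for each. For annotation release, strand setting and filters: not given in the sources used here. Because TPM has 1 fixed total, abundant genes that change shift every other value, and without read numbers the depth per library and its precision are unknown.

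Rows of 1 symbol were summed (63568 rows, 56624 symbols), after 6 rows with ambiguous date-like names were left out. The 14881 genes that reached 1 TPM in 3 or more libraries were tested. On log2(TPM + 1), that is with a pseudocount of 1, limma 3.58.1 (R 4.3.3) estimated 5 group means from the 15 libraries with the variance trended on intensity, for 10 pairwise comparisons and 1 F test. P-values were Benjamini-Hochberg adjusted over all tested genes. Ratios are of TPM within a library. Coordinates come from GENCODE 29, and promoters from RefSeq.

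Members and gene lists were chosen with earlier results of these data known. One gene of the KLF1 target list is not reported here and was left out of its counts. The rule for named genes gave all members, GATA1, the 3 genes most correlated with a member whose group means span at least 1 log2 unit (only GFI1), neighbours and overlapping genes, and up to 3 members per list and comparison among those past 2-fold, with the smallest adjusted p. Other genes of the KLF1 window, genes given in a line where they did not pass 2-fold, and ERG beside FLI1, RCOR1 and NFIA were chosen after their values were seen.

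Tested on data simulated for the comparison of IDH1R132H with Parental (14881 genes), the fit recovered 49 of 50 genes raised by 1.5 log2 units, 50 of 50 lowered by 1.5, 50 of 50 raised by 2 and 50 of 50 lowered by 2, with 5 false calls. Unchanged data gave 0 calls. A call here needed a 2-fold difference as well as an adjusted p under 0.05. False passes on the adjusted p alone were therefore not measured. Changes smaller than 1.5 were not simulated, and the simulated noise was independent, without shifts of a whole library. Alternatives were other pseudocounts and filters, median-ratio scaling, quantile normalisation, fitting the compared libraries alone, dropping the trend, library weights, a replicate block and removal of single libraries. Leaving out Parental replicate 2 and IDH2R140W replicate 3 together, and either or both for the gene lists, was added after the data were seen.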

Additional observations from a re-analysis of the deposited data

Results flagged for a closer look

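The test of the difference between 2 edited lines, all grown without GM-CSF, drew attention to GFI1 in 4 pairs of lines, each past 2-fold. GFI1 was lower in IDH1R132H than in IDH2R140W (log2 difference −1.08, limma adjusted p = 7.20e-05) and higher in IDH1R132H than in IDH2R172K (1.14, adjusted p = 4.87e-05). It was lower in IDH2R140Q than in IDH2R140W, a line edited at the same residue (−1.45, adjusted p = 6.54e-06), and higher in IDH2R140W than in IDH2R172K (2.22, adjusted p = 8.28e-08). In each pair the 3 libraries of one line lay outside the range of the other, as they did for 49.3%, 51.9%, 48.9% and 44.1% of all tested genes. Of all tested genes, 7.86%, 7.49%, 5.69% and 6.86% changed 2-fold in these pairs. The other 7 members passed 2-fold in none of the 6 comparisons between edited lines on the deposited scale.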

How the results depend on the processing

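Counts of members past 2-fold changed under a few alternatives. Median-ratio scaling gave 1 in IDH1R132H against Parental (KLF1), 1 in IDH2R140Q against Parental and 1 in IDH2R140Q against IDH2R172K (both LDB1), and 2 in IDH1R132H against IDH2R172K (KLF1 and GFI1). Quantile normalisation gave 1 (KLF1) in IDH1R132H against Parental and 2 (KLF1 and GFI1) in IDH1R132H against IDH2R172K. Leaving out 1 library gave 0 to 1 in IDH1R132H against Parental (1 without IDH1R132H replicate 1), 1 to 2 in IDH1R132H against IDH2R172K (2 without IDH1R132H replicate 1 or IDH2R172K replicate 2) and 0 to 1 in IDH1R132H against IDH2R140W (0 without IDH2R140W replicate 1). On the adjusted p alone, members that passed in IDH2R140W against Parental numbered 7 after median-ratio scaling (25.9% of all genes) and 2 with only the compared libraries (10.8%). In IDH1R132H against Parental they numbered 5 after median-ratio scaling (43.3%). In IDH2R172K against Parental they numbered 1 with no filter (15.6%) or with only the compared libraries (28.1%). In IDH1R132H against IDH2R140Q they numbered 3 after median-ratio scaling (29.5%), after quantile normalisation (31.4%) or with library weights (44.8%). They numbered 4 there with only the compared libraries (41.2%), and also 4 without Parental replicate 2 and IDH2R140W replicate 3. The cause was not tested.

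Signs that reversed belonged to differences that did not pass on the deposited scale. Median-ratio scaling turned GATA2 in IDH1R132H (−0.094), IDH2R140Q (−0.14) and IDH2R172K (−0.10), KLF1 in IDH2R172K (−0.15) and ZFPM1 in IDH1R132H (−0.051), all against Parental. Quantile normalisation turned GATA2 (−0.0086) and KLF1 (−0.069) in IDH2R172K and ZFPM1 in IDH1R132H (−0.056), and library weights turned GATA2 (−0.026) and KLF1 (−0.014) in IDH2R172K. Without both Parental replicate 2 and IDH2R140W replicate 3 the values were −0.024 for GATA2 and −0.0042 for KLF1 in IDH2R172K, and −0.027 for ZFPM1 in IDH1R132H. Removal of single libraries gave ranges of −0.018 to 0.042 for KLF1 and −0.024 to 0.096 for GATA2 in IDH2R172K, −0.16 to 0.020 for GFI1B and −0.027 to 0.34 for ZFPM1 in IDH1R132H, and −0.031 to 0.30 for TAL1 in IDH2R140W. The direction turned without Parental replicate 2 for GATA2, KLF1, ZFPM1 and TAL1, without IDH2R172K replicate 1 or 3 for KLF1, and without Parental replicate 1 for GFI1B.

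Same-numbered libraries deviated together in 1 of 30 group pairs, with correlations between −0.29 and 0.22. The labels state no pairing, and with 3 libraries per group these correlations cannot decide whether the numbers pair samples. With the replicate number as a block no count of members past 2-fold changed. The members that passed in IDH2R172K against Parental went from 3 to 2 (37.3% of all genes), as GFI1B was lost (adjusted p = 0.0533). No other call of a member against Parental changed. TPM gives no depth, so counting error at the level of GFI1, the lowest member, cannot be judged.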
